A study of Mus musculus with 6 samples.

Results

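The interferon-induced transmembrane protein genes Ifitm1, Ifitm2 and Ifitm3 were examined in MC38 cells, a mouse colorectal cancer line. These 3 genes were taken by symbol from a table of 16583 genes and are all the members of the set. They were chosen by measured values, the knockout and control read counts and TPM, because Ifitm2 was higher in the knockout while most interferon stimulated genes were lower. Their own differences between the groups are therefore given as a description, with no test. The study asked how the nuclear receptor coactivator SRC-1 (gene Ncoa1) raises PD-L1. It compared 3 control samples (genotype Ctrl, titled KOCtrl) with 3 samples titled KOSRC-1, whose genotype labels read KOSRC-1, KOSRC-2 and KOSRC-3. All 6 samples, controls included, had been exposed for 24 hours to 100 ng per mL of interferon gamma, so no library shows the unstimulated level of an Ifitm gene. The labels give neither the way the gene was knocked out nor whether the replicates are separate clones or cultures.

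IFITM proteins are small membrane proteins that restrict the entry of many enveloped viruses by hindering the fusion of viral and cellular membranes. IFITM3 and IFITM2 act mainly in endosomes and lysosomes, and IFITM1 mainly at the cell surface, as known from human cells. Their genes lie side by side in 1 cluster, carry promoter elements for interferon-activated factors and are induced by both type I and type II interferon. Mouse Ifitm3 is also known as fragilis, from its expression in early germ cells.

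The cluster lies on chromosome 7 of the GRCm38.p6 build. Ifitm2 (gene 80876, 140954837 to 140959686, minus strand), Ifitm1 (gene 68713, 140967429 to 140969827, plus strand) and Ifitm3 (gene 66141, 141009590 to 141010744, minus strand) span 55.9 kb. In GENCODE M21 the coding transcripts of Ifitm2 and Ifitm3 have 2 exons each and are short, at 655 and 678 bases, and the longest of Ifitm1 has 882. The aligned coding bases of Ifitm2 and Ifitm3 were 80.8% identical, and those of Ifitm1 were 81.6% and 81.9% identical to Ifitm2 and Ifitm3. The RefSeq sequences of the 250 bases before the Ifitm2 start (chr7:140955962-140956211, minus strand) and the Ifitm3 start (chr7:141010745-141010994, minus strand) are shown. An interferon response element lies at or near both starts. Its core was searched on both strands as GAAA, any 2 bases and GAAA again, and is marked by capitals. In Ifitm3 the core lies after the start, so the stretch before that start holds no capitals. The Ifitm2 start is the one in the RefSeq promoter table, and the RefSeq gene record runs further upstream.
Ifitm2 upstream: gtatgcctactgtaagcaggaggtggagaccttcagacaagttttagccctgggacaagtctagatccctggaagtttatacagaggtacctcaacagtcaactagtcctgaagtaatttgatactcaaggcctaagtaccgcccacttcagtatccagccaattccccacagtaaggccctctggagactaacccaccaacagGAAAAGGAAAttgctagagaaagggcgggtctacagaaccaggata
Ifitm3 upstream: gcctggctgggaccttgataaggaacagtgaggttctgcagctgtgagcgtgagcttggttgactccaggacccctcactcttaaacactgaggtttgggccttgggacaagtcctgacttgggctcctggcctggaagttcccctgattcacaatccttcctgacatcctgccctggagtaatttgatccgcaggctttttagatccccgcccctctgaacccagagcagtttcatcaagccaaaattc

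The interferon element of the pair can be set side by side over 30 bases, at chr7:140955981-140956010 for Ifitm2 and chr7:141010716-141010745 for Ifitm3, both on the minus strand.
Ifitm2 element: cagGAAAAGGAAAttgctagagaaagggcg
Ifitm3 element: cagGAAAAGGAAActtctgaGAAACCGAAA
The Ifitm2 match lay at bases -46 to -37 from the RefSeq start. Ifitm3 held the same 10 bases at 3 to 12 after its start and a further match at 20 to 29. The GENCODE starts of Ifitm2 and Ifitm3 each lie 26 bases further upstream. A core of the gamma-activated site (TTC, any 3 bases, GAA) occurred in the Ifitm3 window at bases 14 to 22, where it overlapped the further match, and did not occur in the windows of Ifitm2 and Ifitm1. The interferon element core did not occur in the Ifitm1 window, which was set at a RefSeq start of 140968076. The longest coding Ifitm1 transcript of GENCODE starts upstream of that window, at 140967221, so the sequence before that start was not searched. Over windows of 300 bases (250 before and 50 after a start), the interferon element core occurred in 3.44% of 32851 RefSeq promoters, at least 2 such matches in 0.225%, and the gamma-activated site core in 8.30%.

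The libraries held 16329459 to 17207625 expected counts. Ncoa1 stood at 18.0 to 18.5 CPM (read counts relative to the TMM-adjusted library total) in control libraries, and knockouts 1, 2 and 3 held 16.7, 10.1 and 16.1 CPM. This difference did not pass the edgeR test (log2 fold change -0.35, SE 0.184, adjusted p = 0.179), so "knockout" below is the label. Knockout 2 stood apart, correlating with knockouts 1 and 3 at 0.978 to 0.981 in log2 CPM across genes, against 0.996 between those and 0.994 to 0.995 among controls. Of 8 colon epithelial markers, 7 were listed, and all 7 (Epcam, Cdh1 and keratins among them) were under 1 TPM in every library. TPM here are the deposited transcript abundances, scaled by length to a fixed sum. Markers of other cell types summed to 356 to 383 TPM in controls and 88.6 to 128 in knockouts for fibroblasts and stroma (7 of 7 listed, mostly Dcn, with Col1a1, Col1a2 and Thy1 under 1 TPM), 14.0 to 16.9 and 5.99 to 7.33 TPM for immune cells (6 of 7 listed, mostly Cd68, with Ptprc under 1 TPM), and at most 0.28 TPM for endothelial cells (3 of 4 listed). Their part in the Ifitm values was not tested. In bulk RNA, fewer expressing cells and less RNA per cell cannot be told apart.

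Ifitm3 was the most abundant member and Ifitm2 the one that differed most between the groups, whereas Ifitm1 was barely detected. Ifitm2 and Ifitm3 passed the filter on low counts and Ifitm1 did not. Ifitm2 stood at 797, 739.8 and 771 TPM in controls 1, 2 and 3, and at 1273.5, 1424 and 1324 TPM in knockouts 1, 2 and 3. Every knockout library was above every control. The group means were 769 ± 28.7 and 1340.4 ± 76.6 TPM (SD, n = 3 each), a ratio of 1.74. On the CPM scale control libraries 1 to 3 held Ifitm2 at 219.6, 210.8 and 212, and knockout libraries 1 to 3 at 307, 447 and 331. The groups were again apart, with knockout 2 well above the other knockouts. The log2 fold change from the edgeR fit on counts was 0.76 (SE 0.141), or 1.69-fold. In CPM the groups did not overlap for 51.4% of the 11656 tested genes, and 24.8% had all 3 knockouts above all 3 controls, so the lack of overlap by itself does not set Ifitm2 apart.

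Ifitm3, the member best known for blocking influenza virus entry in mice and humans, stood at 3384, 3521 and 3543 TPM in the controls and at 3948, 4622 and 4094 TPM in the knockouts. Every knockout was above every control in TPM, with means of 3483 ± 86.2 and 4221 ± 354 (ratio 1.21, SD, n = 3 each). In TPM the groups did not overlap for 45.7% of tested genes, and all knockouts were above all controls for 21.3%. In CPM the groups overlapped. Control libraries gave 979, 1052 and 1023 CPM, and knockout libraries gave 996, 1523 and 1072. The edgeR log2 fold change was 0.23 (SE 0.161), and it was 0.02 when knockout 2 was left out. Without knockout 2 the Ifitm2 change was 0.57. In CPM, Ifitm3 stood at 0.979 and 1.05 times the control mean in knockouts 1 and 3 and at 1.496 times in knockout 2. Ifitm2 stood at 1.43, 2.09 and 1.55 times the control mean in knockouts 1, 2 and 3.

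Ifitm1 had 5, 1 and 5 expected counts in the controls and 2, 4 and 5 in the knockouts, at 0.25 to 1.33 TPM. The groups overlapped, with 11 counts in total in each. The ratio of 1.01 had a 95% interval of 0.398 to 2.57, which covers counting error only, so neither a rise like that of Ifitm2 nor a fall by the same factor was detectable at this depth. All 18 expected counts of the members were whole numbers, against 88.9% of values in the table. Ifitm2 shares sequence with other loci. Of its 100-base stretches, 34.9% also occur in other annotated transcripts, as do 48.5% of its 50-base stretches. Most of this is a GENCODE model that runs from the Ifitm5 locus into Ifitm2, and without that model the shares were 4.68% and 22.8%. For Ifitm3 the shares over all other transcripts were 0% and 10.0%. The read length and the treatment of reads with several matches are not given in the sources used here, so the Ifitm2 level is uncertain to that extent.

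**Figure D1:**
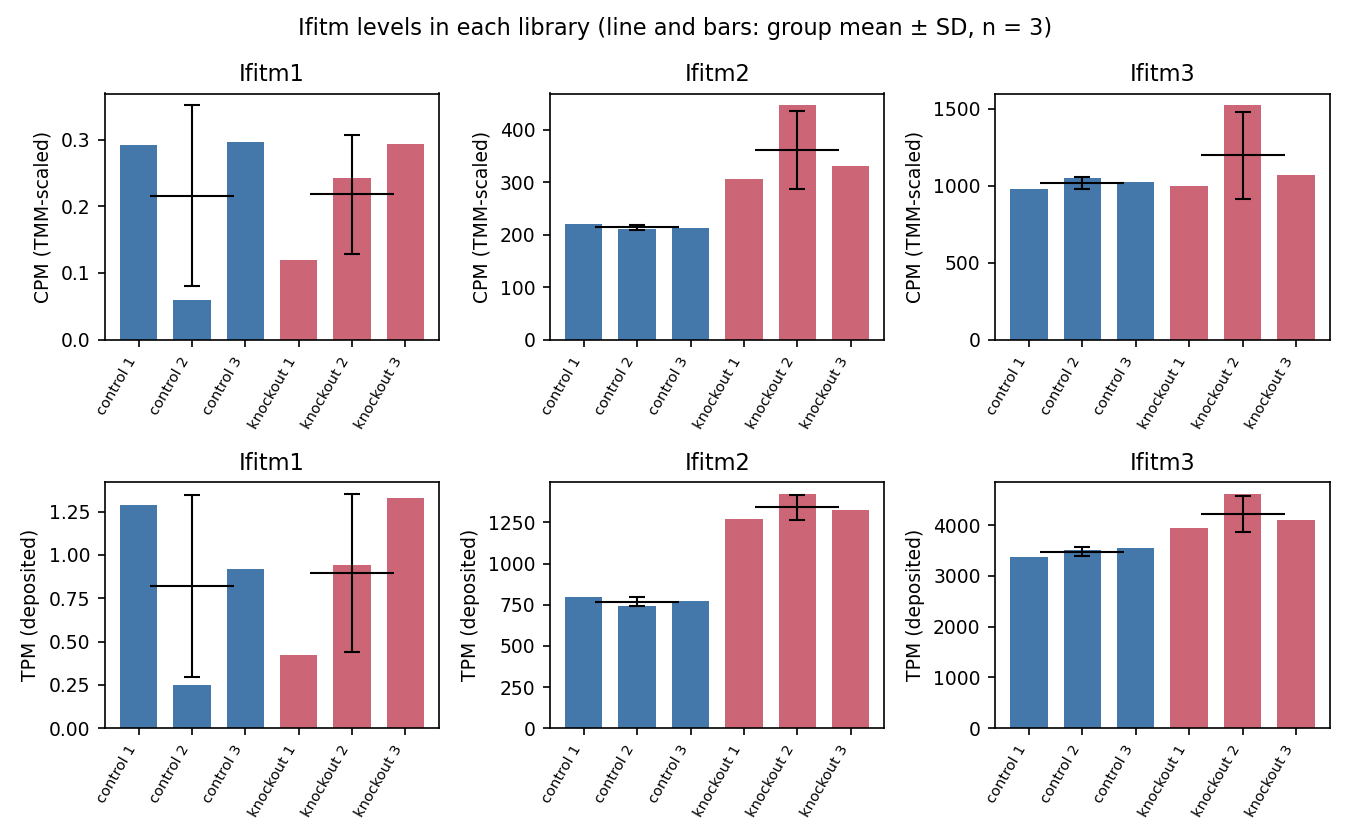
Level of each Ifitm gene in each library, in TMM-scaled CPM (upper row) and deposited TPM (lower row), on linear axes that start at 0 and differ between panels. Blue bars are controls and red bars knockouts, and black marks give the group mean ± SD (n = 3). Ifitm2 is higher in every knockout on both scales, Ifitm3 is clear of the controls in TPM but not in CPM, and Ifitm1 lies under 1.4 TPM throughout.

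In CPM, the departure of knockout 2 from the other knockouts went with transcript length. In knockout 2, the 555 tested genes with transcripts under 1000 bases were a median of 0.52 higher on the log2 CPM scale than the mean of knockouts 1 and 3, and the 6137 genes with transcripts over 3000 bases were a median of 0.19 lower (value -0.19). Ifitm2 and Ifitm3 were 0.49 and 0.56 higher there, close to the median of short transcripts. When a smooth trend on length and GC content was subtracted from each library, Ifitm2 took values of 219, 199 and 215 CPM (controls 1 to 3) and 366, 347 and 376 CPM (knockouts 1 to 3). Ifitm3 then took values of 957, 989.6 and 1021 CPM (controls) and 1179, 1244 and 1206 CPM (knockouts). On this scale all knockouts exceeded all controls for both genes, and the 3 knockouts lay close to each other (coefficients of variation 4.04% and 2.70%). The same separation was common there, with no overlap for 62.0% of tested genes and all knockouts above all controls for 34.2%. The log2 changes were then 0.78 for Ifitm2 and 0.29 for Ifitm3. Whether these trends are technical was not tested.

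**Figure D2:**
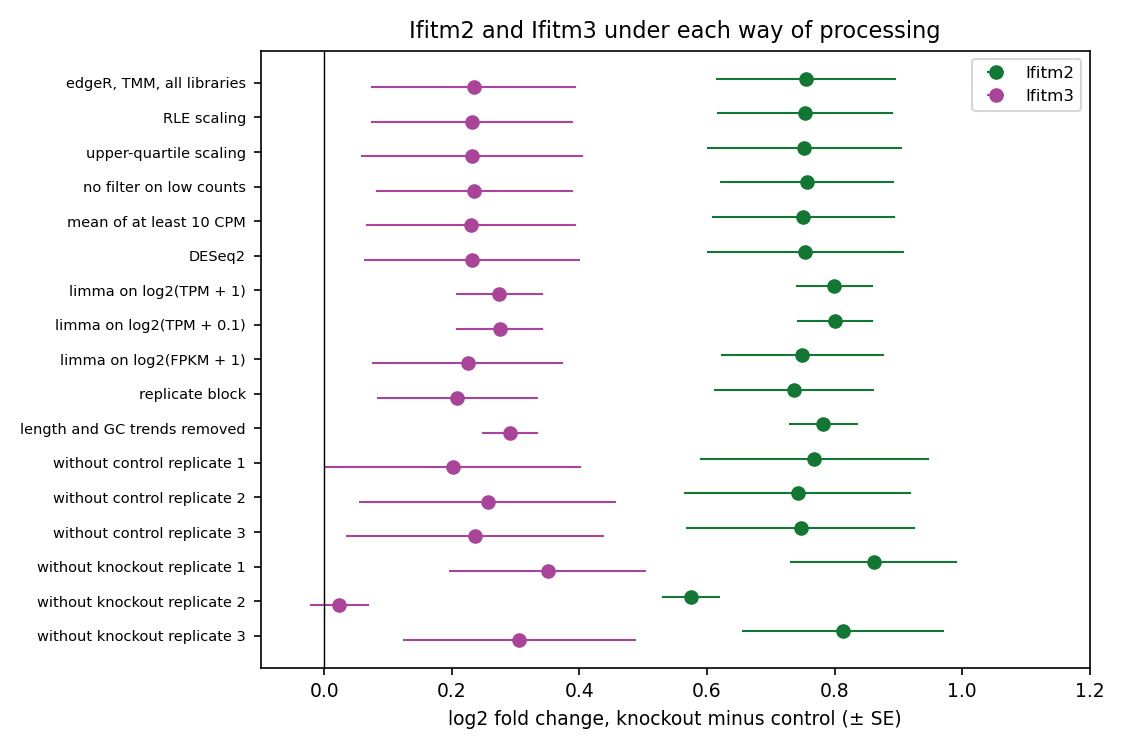
Log2 fold change of Ifitm2 (green) and Ifitm3 (purple), knockout minus control, under each way of processing, with standard errors as bars. Ifitm2 runs from 0.57 to 0.86 and Ifitm3 from 0.02 to 0.35, and the lowest value of both is the one without knockout replicate 2.

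Within a library, the ratio of the pair does not depend on scaling between libraries. Ifitm2 TPM divided by Ifitm3 TPM came to 0.236, 0.210 and 0.217 for control libraries 1 to 3 and to 0.323, 0.308 and 0.323 for knockout libraries 1 to 3. The groups did not overlap, and knockout 2 was like the other knockouts. The rise of Ifitm2 was part of the reason for choosing these genes, so this separation was partly set by the choice. How often other pairs of genes separate in this way was not computed. The mean ratio was 0.221 ± 0.0131 in controls and 0.318 ± 0.00855 in knockouts (SD, n = 3 each). The log2 change of Ifitm2 minus that of Ifitm3 was 0.52 and stayed between 0.49 and 0.57 under all 16 alternatives. Ifitm2 made up 18.1 ± 0.872% of the summed TPM of the 3 genes in controls and 24.1 ± 0.494% in knockouts, with Ifitm1 at most 0.0308% in any library. The sum of the 3 genes was 0.418%, 0.426% and 0.431% of all TPM in the controls and 0.522%, 0.605% and 0.542% in the knockouts. Ifitm3 ranked 43 to 48 by TPM among all 16583 listed genes in controls and 29 to 32 in knockouts, and Ifitm2 ranked 185 to 202 and 120 to 128.

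**Figure D3:**
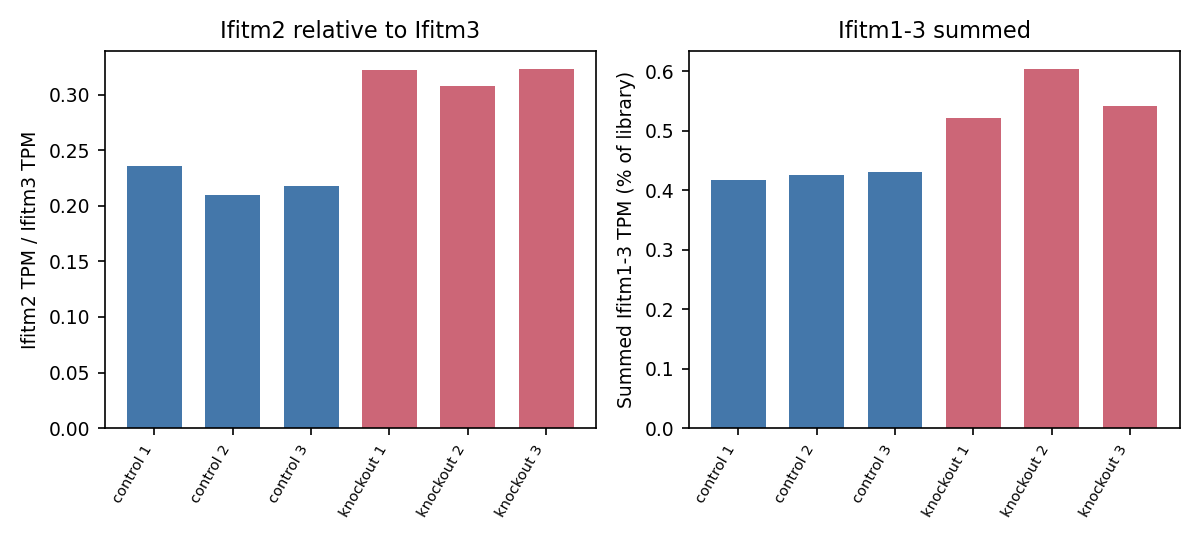
Ifitm2 TPM divided by Ifitm3 TPM (left) and the summed TPM of Ifitm1, Ifitm2 and Ifitm3 as a percentage of all TPM (right), 1 bar per library, blue for controls and red for knockouts. The ratio lies at 0.210 to 0.236 in controls and 0.308 to 0.323 in knockouts, and the sum at 0.418% to 0.431% and 0.522% to 0.605%.

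The Ifitm pair was set beside a list of interferon stimulated genes, of which 37 of 40 symbols were listed (the list holds an older and a newer name of 1 gene) and 36 were tested. On the per-length TPM scale and by group means, Ifitm3 held the highest level of these 40 genes (the 37 and the 3 members) in both groups. In controls it was followed by Bst2, which encodes tetherin, a protein that holds budding virus at the cell surface (1395 ± 48.7 TPM), Isg15, a ubiquitin-like modifier (1308 ± 76.3 TPM), Ifitm2 and then the nucleic acid sensor Zbp1 (557 ± 22.5 TPM). The control ranges of Bst2 and Isg15 overlapped, and that of Ifitm2 lay clear of both Isg15 and Zbp1. In knockouts Ifitm2 came next after Ifitm3, at 1273.5 to 1424 TPM, above the range of Bst2 (1003 to 1231 TPM), with Isg15 at 693 to 856 TPM. The 3 Ifitm genes made up 37.8%, 36.7% and 36.3% of the summed TPM of all 40 genes in controls 1, 2 and 3. They made up 49.7%, 54.0% and 49.1% in knockouts 1, 2 and 3. The members were chosen because Ifitm2 was higher while most interferon stimulated genes were lower. The higher place of Ifitm2 and the larger share in knockouts were therefore partly set by the choice.

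Most of the list was lower in the knockout. Of 36 tested genes, 22 fell, 1 rose and 13 were not called (edgeR adjusted p under 0.05, the meaning of rose, fell and called throughout). Across all tested genes 35.7% were called, 17.1% higher and 18.5% lower. The median log2 fold change of the list was -0.43, against 0.02 over all tested genes. The fall of this list was part of the reason for choosing the Ifitm genes, so the count describes their setting. The smallest adjusted p-values among the fallen genes belonged to Oas1g and Oasl1 of the oligoadenylate synthetase family, the antiviral gene Rsad2, the ISG15 protease gene Usp18 and Ifi44. Oas1g went from 38.0 ± 2.57 CPM down to 9.58 ± 1.23, a 3.96-fold fall (log2 SE 0.119, edgeR adjusted p = 7.06e-05). Oasl1 fell 6.01-fold, Rsad2 4.09-fold, Usp18 2.16-fold and Ifi44 2.02-fold. The gene that rose was Parp9, whose product pairs with the ubiquitin ligase DTX3L, from 223 ± 4.97 to 287 ± 19.3 CPM (log2 fold change 0.36, SE 0.0761, adjusted p = 0.00954). Ifitm2, at 0.76, lay above the change of every tested member of the list, a place partly set by the choice of the genes. Ifitm3, at 0.23 (SE 0.161), lay below Parp9 and above the other 35, the highest of which was at 0.22. Without knockout 2 the Ifitm3 change was 0.02. The count of fallen genes was 13 without control 2 and 13 without control 3, and 26 without knockout 2. The count of risen genes was 3 without knockout 2 and 0 without control 1 or control 2, where the adjusted p of Parp9 was 0.0553 and 0.0535. Limma on log2(TPM + 1) and log2(TPM + 0.1) also left Parp9 uncalled, at an adjusted p of 0.0769 and 0.0778.

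**Figure D4:**
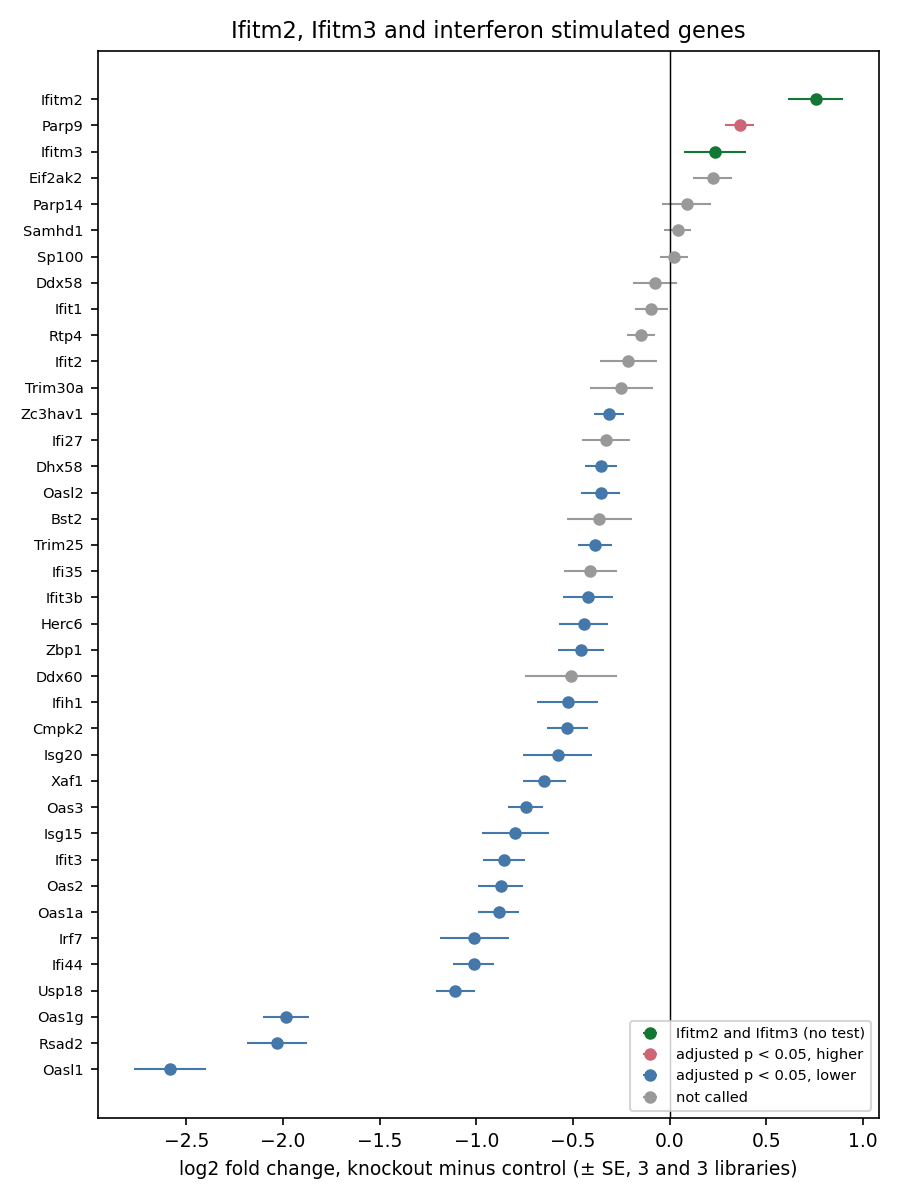
Log2 fold change, knockout minus control, with its standard error for Ifitm2, Ifitm3 (green, no test) and the 36 tested interferon stimulated genes, sorted by value. Blue points fell (22), the red point rose (Parp9) and grey points were not called (13), and Ifitm2 is the topmost point at 0.76.

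The interferon element core was looked up in the promoter windows of the same list. It occurred in 14 of 29 genes with a window, or 48.3%, against 3.99% of 27025 genes with a window. Of the 14 tested genes with the core, 8 fell and 6 were not called, with changes from -2.03 to 0.22 (median -0.52). Of the 14 tested genes without it, 10 fell and 4 were not called, with changes from -2.59 to 0.04 (median -0.43). Another 8 tested genes, of which 4 fell and 1 rose, had no window. Ifitm2 and Ifitm3 thus share the core with the 8 genes that fell, Rsad2 and Oas1g among them, and with the 6 that were not called. Whether the core bears on the changes was not tested.

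Genes of the interferon receptors and their signalling were called in both directions. Of 18 tested genes, 6 rose, 4 fell and 8 were not called, a median of 0.16. The share called was 55.6%, against 35.7% of all tested genes (17.1% higher and 18.5% lower). The type I receptor subunit gene Ifnar1 rose 1.64-fold (46.6 ± 3.07 to 76.4 ± 3.01 CPM, adjusted p = 0.000811), the Janus kinase gene Tyk2 rose 1.56-fold, the feedback inhibitor gene Socs1 rose 1.54-fold, and Ifngr2, a subunit of the interferon gamma receptor, and Stat3 rose 1.33-fold each. The fallen genes were Irf1 (1.72-fold), whose product binds interferon elements, Irf9 (1.44-fold), the part of ISGF3 that contacts DNA, its partner Stat2 (1.22-fold) and the phosphatase gene Ptpn2 (1.19-fold). Bst2, Isg15 and Zbp1 above are named outside the naming rule. The 10 calls became 6 without control 2, control 3, knockout 1 or knockout 3.

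Genes for proteins reported, mostly in human cells, to modify IFITM proteins or to act beside them were also called in both directions. Of 17 tested, 6 rose, 2 fell and 9 were not called, with a median of 0.21. The share called was 47.1%, where all tested genes gave 35.7%. Cd81, a tetraspanin of the cell surface, rose 1.72-fold from 109 ± 5.16 to 189 ± 8.34 CPM (log2 fold change 0.79, SE 0.0745, adjusted p = 0.000391). The tetraspanin gene Cd9 rose 1.35-fold. Vcp, a segregase ATPase that takes part in IFITM3 turnover, rose 1.31-fold, Zdhhc7, a palmitoyltransferase, 1.30-fold, and Nedd4, a ubiquitin ligase of IFITM3, 1.38-fold. The kinase gene Fyn, whose product phosphorylates IFITM3, fell 1.27-fold from 104 ± 2.57 to 81.3 ± 1.78 CPM (adjusted p = 0.00678), and Vapa, encoding an endoplasmic reticulum contact-site protein, fell 1.28-fold. The 8 calls became 4 without control 2, 3 without control 3 and 15 without knockout 2.

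Other factors that act on virus entry or release were called about as often as tested genes in general. Of 13 tested, 1 rose, 3 fell and 9 were not called, 30.8% called against 35.7% of all genes. Cd74, which encodes the invariant chain of MHC class II, fell 3.46-fold, with 5.17 ± 0.957 CPM in controls against 1.495 ± 0.488 in knockouts (adjusted p = 0.00199). Serinc3, which lowers the infectivity of retroviral particles in human cells, fell 1.40-fold from 423 ± 7.65 to 302 ± 30.8 CPM, and the guanylate-binding protein gene Gbp5 fell 1.35-fold. Cnp, a cyclic nucleotide phosphodiesterase gene known from myelin, rose 1.48-fold from 6.09 ± 0.853 to 9.02 ± 1.37 CPM. The calls became 2 without any 1 control, 10 without knockout 2 and 9 after subtraction of the length and GC trends.

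The wider family with the same CD225 domain was hardly expressed. Of its 14 symbols, 7 were listed, 2 were tested (Prrt2 and Tmem265) and 0 were called (0 at an unadjusted p under 0.05 by edgeR, and 0 called and 0 at an unadjusted p under 0.05 by DESeq2). Prrt2 had the smaller p, at 0.807 ± 0.154 and 1.09 ± 0.406 CPM (adjusted p = 0.341). Ifitm5, known from bone-forming cells, had 10, 9 and 6 counts (controls 1 to 3) and 6, 12 and 6 (knockouts 1 to 3), and the groups overlapped. Ifitm6, next to Ifitm3, had 14, 9 and 11 counts in controls and 5, 3 and 6 in knockouts, with every knockout below every control. In CPM, every knockout was also below every control for 26.5% of tested genes. Its ratio by summed counts was 0.417 (95% counting interval 0.207 to 0.797), opposite in direction to that of Ifitm2, and it did not pass the filter on low counts. Without that filter Ifitm6 had a log2 fold change of -1.24 (SE 0.395, edgeR adjusted p = 0.0494), and limma gave it an adjusted p of 0.0386 on log2(TPM + 1), 0.0501 on log2(TPM + 0.1) and 0.0125 on log2(FPKM + 1). In the 4 fits without 1 library in which it passed the filter, its edgeR adjusted p was 0.0536 to 0.0759 and it was not called. Ifitm10, further away, had 10 and 11 counts over the groups.

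The genes around the cluster showed no common direction. Within 500 kb of the Ifitm genes RefSeq places 81 genes, 44 of them listed, and 26 other than the Ifitm members were tested. Of these, 2 rose, 4 fell and 20 were not called, or 23.1% called against 35.7% of all genes, with a median of 0.09. The median over the 875 tested genes of chromosome 7 was 0.02. Pgghg, a glucosidase gene beside Ifitm5, rose 1.23-fold from 16.9 ± 0.0442 to 20.7 ± 0.784 CPM (adjusted p = 0.0281), and the PHD and RING finger gene Phrf1 rose 1.36-fold. Ric8a, a chaperone of G protein alpha subunits, fell 1.25-fold, the lipase gene Pnpla2 fell 1.38-fold and Chid1 fell 1.35-fold. Irf7, an interferon-induced transcription factor whose gene midpoint lies 309 kb from the Ifitm2 start, fell 2.02-fold from 259 ± 34.4 to 128 ± 30.3 CPM (log2 fold change -1.01, SE 0.178, adjusted p = 0.00495). The cluster thus lay between genes that moved both ways. The 6 calls became 3 without control 1, 2 without control 2 or 3, 14 without knockout 2 and 16 after subtraction of the length and GC trends. Of the 26 symbols of neighbouring genes listed by name, 15 were tested, with 2 risen and 2 fallen.

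**Figure D5:**
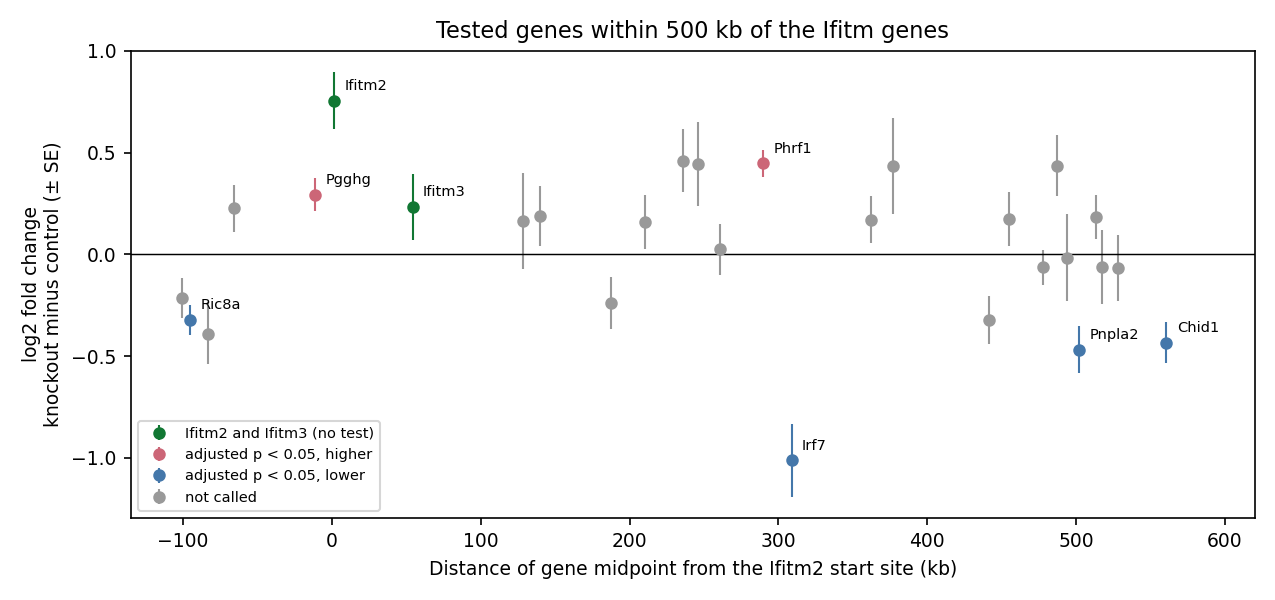
Log2 fold change, knockout minus control, with its standard error for tested genes around the Ifitm cluster, against the distance of each gene's midpoint from the Ifitm2 start in kb. Ifitm2 and Ifitm3 are green (no test), genes that rose are red (Pgghg, Phrf1), genes that fell are blue (Ric8a, Irf7, Pnpla2, Chid1) and others are grey.

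Likeness of pattern was measured as Pearson's r of log2 CPM over the 6 libraries, against 8832 named genes of at least 10 mean CPM. The 6 points form 2 groups with knockout 2 apart, and r mainly follows those differences. The 5 genes most like Ifitm2 were Epop, Cebpd, Ldha, Map1lc3b and Hadh, each with r of 0.999 (Hadh 0.9985). Ldha, the lactate dehydrogenase A gene, gave 1135, 1099.9 and 1097 CPM (controls 1 to 3) and 1491, 1966 and 1536 CPM (knockouts 1 to 3), and like Ifitm2 was highest in knockout 2. The 5 most like Ifitm3 were Crip2, Ncln, Gnas, Cenpx and Snrpg (r from 0.996 to 0.998). Crip2 was at 73.9 to 77.4 CPM in controls and at 74.2, 117 and 78.7 in the knockouts, where knockout 2 alone stood out. Ifitm2 and Ifitm3 correlated with each other at 0.786, which put Ifitm3 at place 1557 for Ifitm2, and at 0.964 when each library was taken as its deviation from its group mean.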

How the data were processed

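RNA sequencing of 6 samples gave 1 table with 3 values per gene and sample. Per the labels' protocols, RNA came from TRIzol and RNeasy extraction and was built into libraries by a NEBNext Ultra kit, not stated to mark the strand. The deposited read counts are expected counts, the authors' FPKM and TPM are scaled by length and depth (per the file headers), and no source used here says which program made them. HISAT2, StringTie, SAMtools and GRCm38.p6 are named, per the submitters' processing notes. Groups and replicate numbers came from the titles. Whether replicates were separate cultures is not labelled, so p-values reflect sample-to-sample spread, which may be technical.

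Expected counts were rounded to whole numbers and filtered with filterByExpr (minimum count 10, minimum total 15), which left 11656 genes. Knockout was compared with control by the robust quasi-likelihood test of edgeR 4.0.16 (R 4.3.3, TMM scaling, two-sided, Benjamini-Hochberg adjustment over all tested genes, threshold 0.05). In simulated counts over 11577 genes it recovered 69% of 100 genes changed 1.5-fold and 100% of 100 changed 2-fold, with 6.11% of calls false. The simulation held no library apart from its group, no length trend and far fewer changed genes than were called here. These shares may therefore not hold for the real libraries. The alternatives tried were upper-quartile and RLE scaling, no filter, a mean of at least 10 CPM, DESeq2 1.42.0, limma 3.58.1 on log2(TPM + 1), log2(TPM + 0.1) and log2(FPKM + 1), replicate number as a block, length and GC trends removed (known for 98.0% of tested genes), and each library left out in turn. The SE of an edgeR change was derived as the absolute log2 fold change divided by the square root of its F statistic. Standard errors of DESeq2 and limma came from their own models. Depth was 16329459 to 17207625 expected counts per library.

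The members, gene lists and tests were chosen with earlier results of these data known. Each list has up to 5 called genes per direction named, by smallest adjusted p (1 gene where none was called), and for likeness the 5 genes of highest r. Of the gene identifiers, 16531 of 16583 matched RefSeq on GRCm38.p6. Promoter sequences are RefSeq's, and all 3 members had one. The values of 1 signalling gene are not reported here.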

Additional observations from a re-analysis of the deposited data

How the results depend on the processing

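Ifitm2 stayed higher in the knockout under all 16 alternatives, from 0.57 to 0.86 on the log2 scale with 1 library left out and from 0.74 to 0.80 under the other 10. Ifitm3 ran from 0.02 to 0.35 and from 0.21 to 0.29, and the 0.02 (SE 0.0462), without knockout 2, was smaller than its standard error. These moves were smaller than 1 SD between replicates, which knockout 2 widens. The Ifitm2 share of the 3 genes ran from 17.6% to 18.5% in controls and from 24.0% to 24.4% in knockouts with 1 library left out. Genes called rose to 6273 with the length and GC trends removed and ran from 2406 to 8208 with 1 library left out. That alternative also called 9 virus entry and release factors, 9 listed locus neighbours, 16 genes within 500 kb and 2 risen interferon stimulated genes. Leaving out 1 library gave 13 to 26 fallen and 0 to 3 risen interferon stimulated genes, 6 to 14 signalling genes, 2 to 10 entry and release factors, 3 to 15 IFITM modifiers and partners, 2 to 8 listed locus neighbours and 2 to 14 genes within 500 kb. Limma on log2(TPM + 1) and on log2(TPM + 0.1) each called 0 risen interferon stimulated genes (0 and 0). Limma on log2(TPM + 1) and on log2(FPKM + 1) called 10 and 10 genes within 500 kb and 1 and 1 CD225 genes, and no filter on low counts called 1 CD225 gene, Ifitm6 in each case. A mean of at least 10 CPM left 2 called entry and release factors. The cause of these shifts was not tested.

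Same-numbered samples deviated together at r = 0.161, 0.261 and 0.0401, which is not enough to pair them. With replicate number as a block, the Ifitm2 and Ifitm3 changes were 0.74 and 0.21, and 4337 genes were called. Depth limits Ifitm1, Ifitm5, Ifitm6 and Ifitm10, which had 10 to 34 counts per group.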
